A study of Drosophila melanogaster with 4 samples.

Results

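The clusters described here are the H3K9ac-enriched regions on the euchromatic stretch of chromosome arm 2L of Drosophila melanogaster. They are the regions of the series-wide list on 2L that start at or before base 22011544 of release 5, which is 1 Mb short of the end of the assembled arm. This took in 2260 of the 12322 clusters of that list, and 2260 of the 2299 on 2L. The rule used position alone. H3K9ac was measured by ChIP-seq in whole embryos of the wild-type strain Oregon-R, aged 14 to 16 h, in 2 H3K9ac ChIP samples (replicates 1 and 2), with 2 input chromatin samples (replicates 1 and 2) for which no values were used here. Whole embryos hold many cell types, so fewer cells with the mark and less of the mark per cell cannot be told apart. Nothing in the labels tells whether the replicates come from separate embryo collections, so their spread may be technical.

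Acetylation of lysine 9 of histone H3 is placed by histone acetyltransferases and removed by histone deacetylases. It marks the promoters and the first part of the transcribed stretch of active genes, and also active enhancers. Arm 2L is one of the large autosome arms, with its telomere end at the first base of the assembled sequence and its centromere end, where heterochromatin begins, at the last. Clusters are given by their release 5 position, and no gene is named at any of them, because the gene table used here is of release 6.

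The deposited values are a start, an end and a score for each cluster. What the score is relative to is not given in the sources used here, so scores are read for order within one list, and scores of the same place in different lists are set side by side without a difference. The depth of sequencing is unknown. All starts and ends of the series-wide list were even numbers, and its narrowest cluster was 1001 bp wide. The replicate lists held odd and even positions and no cluster under 1301 bp.

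H3K9ac clusters filled 28.6% of the bases of euchromatic 2L in the series-wide list, or 6.29 Mb in 2260 clusters. The list of replicate 1 held 1541 clusters there, which covered 4.56 Mb, or 20.7%. That of replicate 2 held 1185, which covered 3.05 Mb, or 13.8%. The lists kept this order in clusters per megabase too, at 102.7 series-wide, 70.01 in replicate 1 and 53.8 in replicate 2. The mean coverage of the replicates was 17.3% ± 4.85 (SD, n = 2). They shared 2.74 Mb of covered bases, which was 60.1% of the bases covered in replicate 1 and 89.8% of those in replicate 2.

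Of the 2260 members, 915 were overlapped by 1 bp or more by clusters of both replicates, or 40.5% (95% Wilson interval 38.5 to 42.5%). The share over the whole series-wide list was 43.5%. A further 508 members, or 22.5%, were overlapped by replicate 1 alone, and 104, or 4.60%, by replicate 2 alone. The remaining 733, or 32.4% (30.5 to 34.4%), were overlapped by neither, against 31.6% over the whole list. The share in both was thus a little under that of the whole list, and the share in neither was close to it. The series-wide list rests on the same ChIP libraries, and these shares describe how the lists fit together and carry no test. Seen from the replicates, 1533 of the 1541 replicate 1 clusters (99.5%) and 1176 of the 1185 replicate 2 clusters (99.2%) overlapped a series-wide cluster.

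The members in both replicates, counted at their full width, held most of the bases covered by members. At the level of bases the replicates shared less, with 2.74 Mb covered in both beside the 6.29 Mb of the series-wide list. Whole members in both made up 63.3% of the bases covered by members, or 3982 kb. The members in neither made up 16.0%, those in replicate 1 alone 17.6% and those in replicate 2 alone 2.99%. The typical member in both was 3293 bp wide and scored 0.692 (medians). For replicate 1 alone these medians were 1921 bp and 0.399, for replicate 2 alone 1647 bp and 0.387, and for neither 1259 bp and 0.401. The score thus set the members in both apart, and the other 3 classes had median scores close to each other and differed in width.

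Member widths ran between 1001 and 38333 bp. The middle 50% lay between 1387 and 3107 bp, with a median of 2001 bp. The list of replicate 1 had a median of 2231 bp on the same stretch and that of replicate 2 had 2118 bp. The 464 members of 1300 bp or less, 20.5% of all, held 8.31% of the covered bases. The 267 members over 4000 and up to 8000 bp held 22.9%, and the 86 over 8000 bp held 17.3%, so few wide members held much of the acetylated sequence. Of these 86, 84 were overlapped by both replicates.

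Overlap with the replicates was more frequent among wider members, but not at every step. Overlap meant 1 bp or more, which a wider member can meet at more positions, and this was not separated from width itself. No member of 1300 bp or less was in both replicates, and 413 of these 464 members, or 89.0%, were in neither. The narrowest clusters of both replicate lists were 1301 bp, so those members lie under the width that the replicate lists hold. The share in both was 26.2% for members of 1801 to 2000 bp, 62.3% for 2001 to 2200 bp and 75.9% for 2201 to 2400 bp. It was lower in the next steps, at 53.3% for 2401 to 2600 bp and 54.02% for 2601 to 2800 bp. It reached 81.0% for 3201 to 3400 bp, was 66.7% for the 30 members of 3801 to 4000 bp, and was 94.1% over 4000 bp. The median score also had a peak there, with 0.388, 0.462, 0.658, 0.509 and 0.499 in the 5 steps between 1801 and 2800 bp. Members of 2201 to 2400 bp were therefore higher in median score and more often in both replicates than those of 2401 to 2800 bp, whereas those of 2001 to 2200 bp were more often in both but lower in median score. Across the 2260 members, width and score had a Spearman coefficient of 0.594, which describes the list, since members share their libraries.

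**Figure D1:**
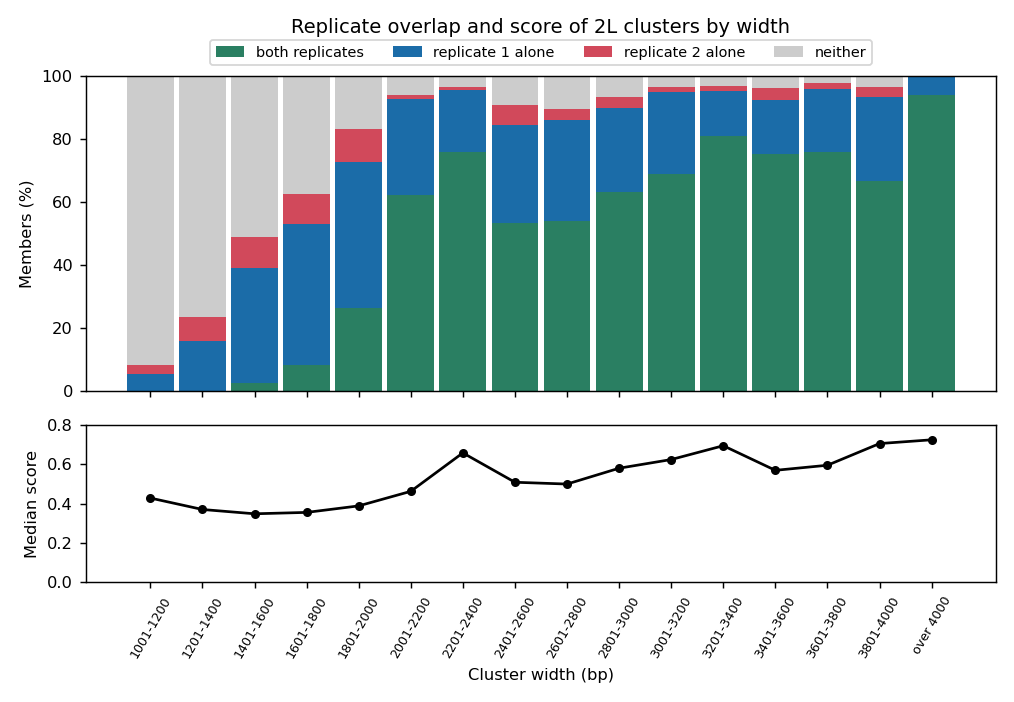
Members by width in base pairs, with the percentage overlapped by both replicates, by 1 alone or by neither (upper panel, stacked to 100%) and the median score (lower panel). The share in both is 75.9% at 2201 to 2400 bp, 53.3% in the next step and 94.1% over 4000 bp, and the median score has a local peak of 0.658 at the same 2201 to 2400 bp.

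The score divided the members sharply. In the lowest 5 deciles of score, of 226 members each, between 7.52% and 13.3% of members were in both replicates. The share was 23.01% in decile 6, 42.5% in decile 7 and 88.1% in decile 8. In deciles 9 and 10, 225 of 226 members each were in both. The steepest part of the change thus fell in deciles 7 and 8, with scores of 0.475 to 0.698. Median widths were 1504 to 1772 bp in the lowest 5 deciles and 3468 to 3567 bp in deciles 8 to 10. Score was thus not told apart from width.

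The highest score on euchromatic 2L belonged to chr2L:8040364-8044902, which scored 2.79 series-wide, 2.93 in replicate 1 and 2.83 in replicate 2. It was 4539 bp wide, and the next cluster on its centromere side lay 25237 bp away. The second, chr2L:19007396-19010186, had 2.54, 2.66 and 2.49 in the same order of lists and lay 22017 bp from its neighbour on that side. The 10 highest-scoring members were each overlapped by exactly 1 cluster of each replicate. They were 2569 to 7427 bp wide, and none was among the 10 widest.

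The third in score, chr2L:10200064-10202946, had 2.36 in the series-wide list, and its next neighbour began after a gap of 167 bp. The fourth, chr2L:18441578-18444146, had 2.32 and stood behind an open stretch of 57137 bp. The fifth, chr2L:9965196-9969250, had 2.26, and the sixth, chr2L:418902-422082, had 2.25. On their other sides, the third had 8809 bp free and the fourth 3277 bp. A high-scoring member could thus have a short or a long gap on a given side. The seventh, chr2L:13392750-13396064, scored 2.18 series-wide, and each replicate covered less of it than of the first 6, at 80.5% in replicate 1 and 81.2% in replicate 2. The eighth, chr2L:10407440-10410490, had 2.17, and the tenth, chr2L:5070096-5072814, had 2.13. The ninth, chr2L:865546-872972, was the widest of the 10 at 7427 bp, scored 2.16, and was followed by 29379 bp without a cluster.

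The widest members were another set. The widest of all, chr2L:640094-678426, spanned 38.3 kb with a score of 0.656, and clusters of replicate 1 covered 93.9% of it and those of replicate 2 covered 45.1%. The second, chr2L:15453394-15488164, spanned 34.8 kb and was covered to 90.1% and 67.9%. The third, chr2L:9578340-9612326, spanned 34.0 kb with 98.1% and 85.4%. The fourth, chr2L:6178298-6208940, spanned 30.6 kb and was a single cluster in replicate 1, which covered 99.99% of it, while replicate 2 had 5 clusters over 64.9%. The first 3 held 3, 3 and 2 clusters of replicate 1, and each held 6 of replicate 2. Replicate 1 therefore covered more of these 4 domains than replicate 2, in fewer clusters.

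Of the other 6 among the 10 widest, chr2L:11358642-11383746 had the least of its 25.1 kb in replicate 2, at 31.8%, against 92.3% in replicate 1. Its score was 0.603. The seventh, chr2L:1401300-1422574, had the highest score of the 10 widest, at 1.18, and was covered to 96.0% in replicate 1 and 81.8% in replicate 2. The ninth, chr2L:1381416-1400722, adjoined it after a gap of 577 bp, and was covered to 92.01% in replicate 1 and 41.3% in replicate 2. The pair spanned 41.2 kb, of which series-wide clusters covered 98.6%, replicate 1 clusters 92.8% and replicate 2 clusters 61.7%. Replicate 1 covered more of the cluster than replicate 2 in each of the 10.

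**Figure D2:**
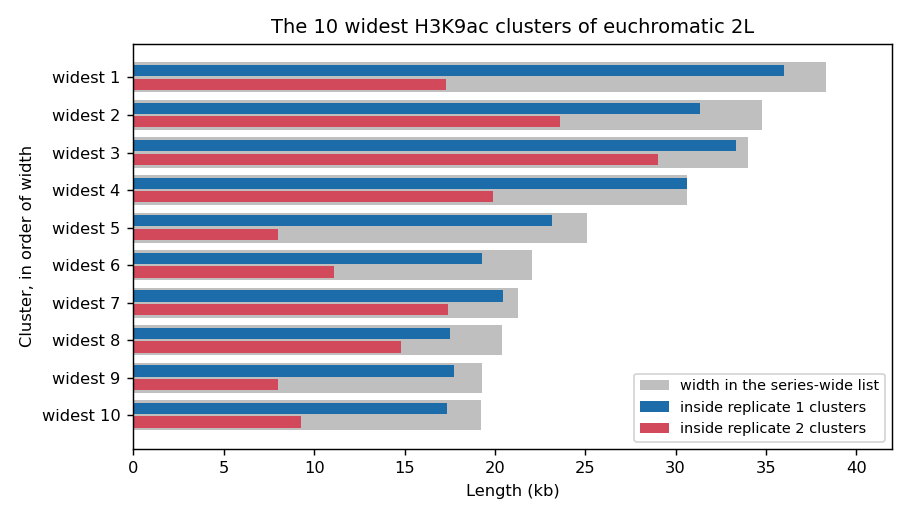
Length in kb of the 10 widest members (grey) and the length inside clusters of replicate 1 and of replicate 2. The replicate 1 bars reach 85.8% to 99.99% of each cluster and the replicate 2 bars 31.8% to 85.4%.

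A member could hold several replicate clusters, but seldom did. In replicate 1, 114 members held 2 or more clusters, with at most 4, and in replicate 2, 107 did, with at most 6. Where a member and a replicate cluster overlapped each other and nothing else, their edges were close. Over 1277 such pairs with replicate 1 the median distance was 62 bp between starts and 58 bp between ends. Over 902 pairs with replicate 2 the distances were 132 and 144 bp. The member was the wider one in 83.2% of the pairs with replicate 1 and in 94.1% of those with replicate 2.

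Few members with high scores had no cluster in either replicate. They numbered 1 of 226 in each of score deciles 9 and 10, and 13 of 226 in decile 8. The highest was chr2L:7547984-7548984, with a score of 1.28 and the least width the list holds, 1001 bp. The next 4 were chr2L:11314938-11316234 with 0.736, chr2L:1694408-1695420 with 0.659, chr2L:14642168-14643356 with 0.641 and chr2L:7342876-7344198 with 0.609. Of the 5, chr2L:7342876-7344198 alone reached the 1301 bp of the narrowest replicate clusters, with 1323 bp.

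Gaps between neighbouring members had a median of 2677 bp, with the middle 50% between 777 and 7522 bp. On the same stretch the median gap was 4022 bp in replicate 1 and 5608 bp in replicate 2. Gaps of 1 kb or less made up 655 of 2259, or 29.0%, series-wide, against 20.1% in replicate 1 and 15.2% in replicate 2. At the other end, 187 gaps were over 20 kb, or 8.28%, and they held 47.4% of all the bases between members. Few long gaps thus held much of the open sequence. In the replicates the share of open bases in gaps over 20 kb was 63.8% and 74.0%.

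Few short gaps were bridged by a replicate cluster, which can happen only where the members on both sides are overlapped by that replicate. Of the 420 gaps of 500 bp or less, 200 had both neighbours in replicate 1, and a single cluster of replicate 1 ran across 21. In replicate 2, 107 had both neighbours, and a single cluster ran across 5. No gap over 500 bp was bridged in this way. Clusters of a replicate that lay wholly within a gap were rare as well. They numbered 8 for replicate 1 and 9 for replicate 2 on the whole stretch, and none of them overlapped a cluster of the other replicate. The highest score among them, 1.21, was that of the replicate 2 cluster chr2L:10390281-10392357.

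**Figure D3:**
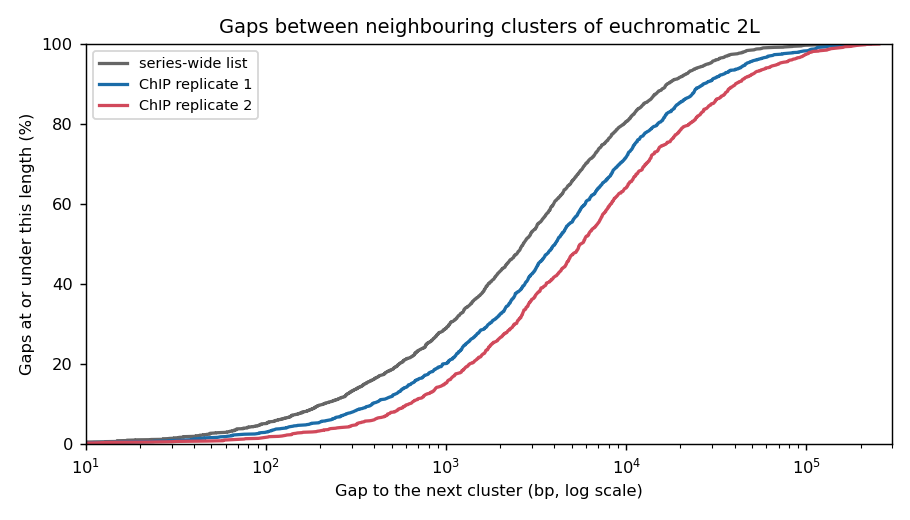
Cumulative percentage of gaps between neighbouring clusters at or under a given length in base pairs (log scale) for the 3 lists on euchromatic 2L, without pairs of clusters that touch or overlap. The series-wide curve lies left of replicate 1, which lies left of replicate 2, with medians over all gaps of 2677, 4022 and 5608 bp.

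Members joined into runs where gaps of 1 kb or less linked them. There were 394 runs of 2 or more, which took in 1049 members, or 46.4%, and 65 runs had 4 or more. The longest, at 628096 to 687628, had 5 members over 59.5 kb, of which 98.7% was covered. It holds the widest member, and all 5 members were in both replicates. The second, at 19189610 to 19240038, had 7 members over 50.4 kb and the third, at 3570018 to 3617308, had 7 over 47.3 kb. In these 2 runs 3 and 4 of the 7 members were in both replicates. Replicate 1 covered 88.5%, 79.8% and 90.4% of the 3 runs, and replicate 2 covered 44.97%, 71.8% and 50.3%.

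Another member in both replicates lay close by more often for members in both than for members of the other classes. From members in both, the nearest other one in both lay a median of 2575 bp away. From members in replicate 1 alone, the nearest member in both lay 5665 bp away, from those in replicate 2 alone 6414 bp, and from those in neither 8607 bp. Within 1 kb of a member in both lay 28.1%, 19.5%, 14.4% and 15.6% of the 4 classes in this order. Over 20 kb away lay 9.62% of members in both and 23.9% of those in neither. Members in neither thus lay farther from those in both. Of the 35 members with more than 20 kb free on both sides, 19 (54.3%) were in neither and 8 (22.9%) in both. The shares over all members were 32.4% and 40.5%. These 35 had a median width of 1467 bp, and 51.2% of all members of 1401 to 1600 bp were in neither. Isolation was thus not told apart from width.

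Along the arm, coverage was not even. The bin of 1 Mb at the telomere end had the highest, with 43.5% in the series-wide list and 28.4% ± 6.90 over the replicates (SD, n = 2 here and below), from 139 members. Next came 19000001 to 20000000, with 39.9% and 26.0% ± 7.76, then 5000001 to 6000000 with 38.9% and 23.2% ± 5.68, and 6000001 to 7000000 with 37.4% and 24.7% ± 5.57. The lowest was 17000001 to 18000000, with 16.7% and 7.98% ± 2.66, from 74 members. Replicate 1 exceeded replicate 2 in 22 of 22 bins. Coverage over the bins had a Spearman coefficient of 0.921 between the replicates, as a description of bins from the same 2 libraries.

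Number and coverage did not always go together. The bin at 14000001 to 15000000 held 119 members, the sixth highest number of the 22 bins, yet coverage there was 22.2% in the series-wide list and 8.20% ± 2.87 over the replicates. Its members were narrow, with a median width of 1479 bp, and 52.1% of them were in neither replicate, while 16.8% were in both. By contrast, the bin at 9000001 to 10000000 held 65 members, the lowest number, and had 20.9% and 15.5% ± 2.90, with 46.2% of members in both. The share of members in both replicates was highest at 10000001 to 11000000, where 56.6% of 99 members were in both, 19.2% in neither and the median width was 2439 bp.

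**Figure D4:**
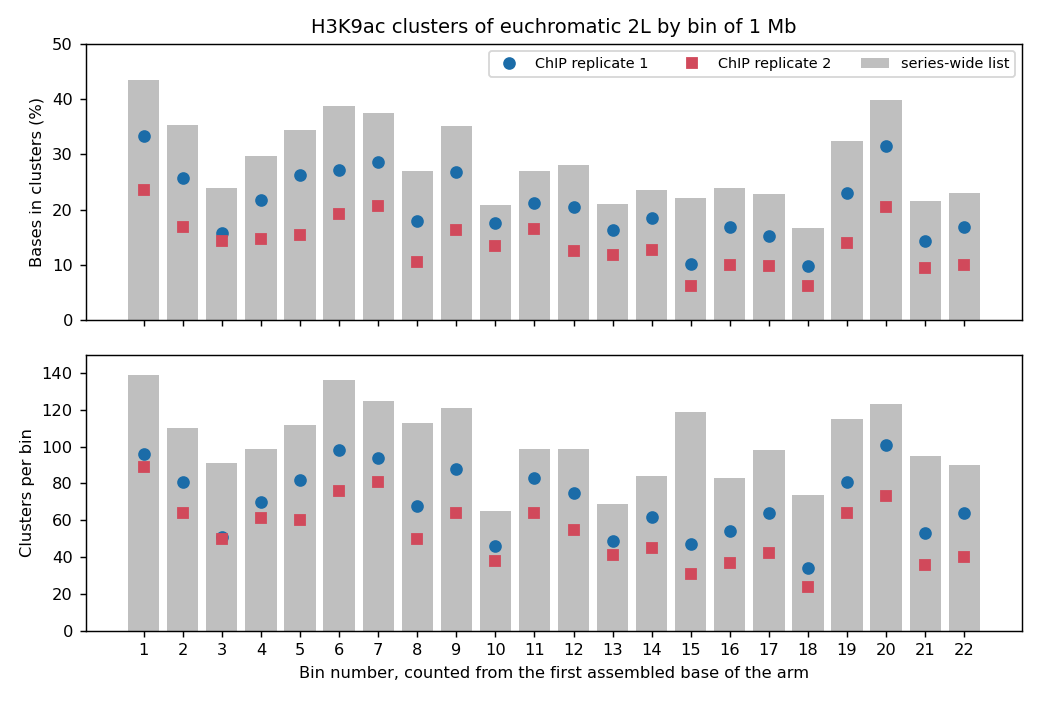
Percentage of bases in clusters (upper panel) and number of clusters (lower panel) in each bin of 1 Mb of euchromatic 2L, counted from the telomere end, for the series-wide list (bars) and the replicates (points). Bin 15 has 119 members and coverage of 22.2%, while bin 1 has 139 and 43.5%.

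Set side by side, the 11 Mb on the telomere side were covered to 32.1% in the series-wide list and to 20.2% ± 5.18 over the replicates. The next 11 Mb on the centromere side were covered to 25.02% and 14.4% ± 4.52. Coverage was higher on the telomere side within each replicate, at 23.8% against 17.6% in replicate 1 and 16.5% against 11.2% in replicate 2. Members on the telomere side were in both replicates in 45.04% of cases and those on the centromere side in 35.3%. Their median widths were 2126 and 1897 bp in this order, so position was not told apart from width in these shares. This division was chosen after the values had been seen, and it was not tested.

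Windows of 100 kb ranged between empty and densely covered. Of the 220 complete windows, the median one was covered to 27.9% series-wide, 19.1% in replicate 1 and 12.98% in replicate 2. The middle 50% of windows lay between 14.6% and 38.2% in the series-wide list. Coverage was over 50% in 26 windows and under 5% in 21. The dense ones lay in both parts of the arm, with 11 on the telomere side of base 11000000 and 15 on the other. Of the 21 sparse ones, 18 lay on the centromere side. Over the windows, coverage in the replicates had a Spearman coefficient of 0.904, and neighbouring windows had one of 0.234 in the series-wide list. Over all windows, the coverage of a window thus went only weakly with that of the next. Most dense windows were not followed by another, but some adjoined. Windows from 18700001 to 19000000 had 53.8%, 65.4% and 51.7%, and those from 19100001 to 19400000 had 51.45%, 61.2% and 68.2%. The window between these stretches had 32.9%. These windows were picked after their values had been seen.

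The densest window was 1400001 to 1500000, with 77.7% in the series-wide list from 15 members. Replicate 1 covered 56.02% of it and replicate 2 36.4%. The second was 600001 to 700000, with 76.1% from 10 members, 68.0% and 36.8%, and the third 8800001 to 8900000, with 74.3% from 15 members, 62.5% and 31.7%. The second had the highest mean of the replicates of all windows, at 52.4% ± 22.1. There, 90% of members were in both replicates. The fourth, 5400001 to 5500000, reached 72.7% in another way, with 25 members of a median width of 1713 bp, of which 24% were in both, and its replicate values were 45.4% and 23.1%.

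The remaining 6 of the 10 densest began at 11300001, 12600001, 15400001, 16400001, 19300001 and 4500001, with series-wide coverage of 71.0%, 70.2%, 69.6%, 68.7%, 68.2% and 66.1%. By the mean of the replicates, 6 of the 10 stayed among the first 10. Those that did not were the windows at 5400001, 11300001, 16400001 and 4500001, which ranked 22, 23, 33 and 17. In the window at 4500001 the replicates lay farther apart than in any other, at 54.3% in replicate 1 and 19.5% in replicate 2. Next in this respect was the window at 21800001, with 49.0% and 16.1%. Replicate 1 was the higher in 189 windows and replicate 2 in 20, and where replicate 2 was higher the excess was 3.30 percentage points at most, at 14900001 to 15000000.

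**Figure D5:**
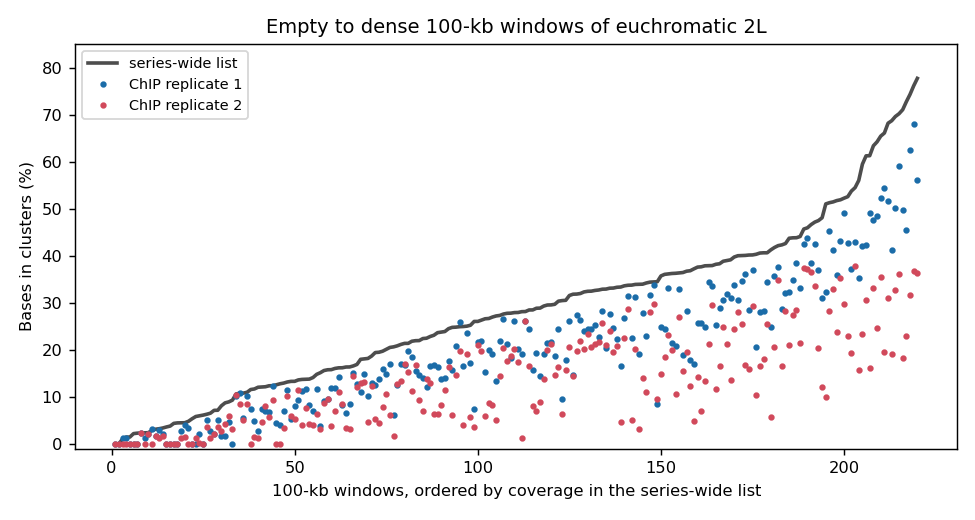
Percentage of bases in clusters in the 220 windows of 100 kb of euchromatic 2L, in order of their coverage in the series-wide list, with both replicates. The order runs between 2 windows at 0 and 1 at 77.7%, where the replicates have 56.02% and 36.4%.

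No H3K9ac cluster of any of the 3 lists fell in the windows 3900001 to 4000000 and 21400001 to 21500000. A further 9 windows held members but no cluster of either replicate. They held 1 to 5 members each, all of them overlapped by neither replicate, and their series-wide coverage was 1.495% to 6.16%. Sparse windows gathered between 17000001 and 18300000, where 7 of 13 windows were covered to less than 5%. Over that stretch the series-wide list covered 15.0% and the replicates 7.28% ± 2.43, and 23.9% of its 88 members were in both. The stretch was picked after its values had been seen.

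Gaps of over 100 kb between neighbouring members numbered 7, and no cluster of either replicate lay wholly inside any of them. The longest was 190.6 kb, at 21381971 to 21572529, close to the centromere end. Tandem histone genes are known to lie near the base of 2L, and whether they fall in this gap was not examined, since no release 5 annotation was used. The gap ended at an isolated member, chr2L:21572530-21574896, whose score was 1.38 series-wide, 1.26 in replicate 1 and 1.45 in replicate 2. After it, another 41905 bp were free.

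The other long gaps lay within the arm. They were 157.6 kb at 20141279 to 20298885, 128.4 kb at 17040905 to 17169283, 120.4 kb at 3889541 to 4009975 and 116.0 kb at 11843057 to 11959093. The last 2 of the 7 were 113.7 kb at 9273587 to 9387271 and 106.8 kb at 10860061 to 10966811. Of the 14 members that bordered these gaps, those at both ends of the gap at 10860061 were in both replicates. So were the member on the telomere side of the gap at 3889541 and that on the centromere side of the gap at 21381971. The others were in a single replicate or in neither. At 20141279, the member on the telomere side was in neither replicate and that on the centromere side in replicate 1 alone.

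At the telomere end, the first member, chr2L:14540-22572, was 8033 bp wide with a score of 1.01, and replicate 1 covered 80.8% of it and replicate 2 79.4%. At the other end, the last member inside the boundary was chr2L:22007790-22009082, with a score of 0.385 and no replicate overlap. The first cluster outside, chr2L:22014792-22016948, had 0.388 and no replicate overlap either. The second outside, chr2L:22018756-22022560, had 0.713 and was in both replicates.

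Coverage inside the boundary was higher than in the 1 Mb beyond it in each of the 3 lists, at 28.6% against 8.34% series-wide, 20.7% against 5.81% in replicate 1 and 13.8% against 4.48% in replicate 2. The 1 Mb beyond held 39 clusters, of which 18 were in both replicates and 13 in neither, with a median width of 1881 bp. Scores did not differ in the same direction in the 3 lists. The median percentile of score within the whole list was 43.5 for series-wide clusters of euchromatic 2L and 41.4 for those beyond it, 44.5 and 70.7 for replicate 1 clusters, and 42.2 and 84.7 for replicate 2 clusters. Few clusters lay beyond the boundary, 26 in replicate 1 and 18 in replicate 2.

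Beside the other large autosome arms, each without the 1 Mb nearest its centromere, euchromatic 2L had 102.7 clusters per megabase in the series-wide list, against 115.9 on 2R, 107.3 on 3L and 105.6 on 3R. Median widths were 2001, 2187, 2082 and 2083 bp in this order, and median gaps 2677, 2351, 2429 and 2467 bp. Gaps over 100 kb numbered 7 on the 22.0 Mb of euchromatic 2L, against 5, 4 and 5 on 20.1, 23.5 and 26.9 Mb. With the other arms taken whole they numbered 7, 8 and 5 there. Without the 1 Mb nearest the centromere, replicate 1 had 27 on euchromatic 2L, against 10, 16 and 25. Replicate 2 had 31, against 19, 30 and 39, so 3R had more than 2L in that list. Of the euchromatic 2L members, the share in both replicates was 40.5% (38.5 to 42.5%), against 46.6% on 2R (44.6 to 48.6%), 42.9% on 3L (41.02 to 44.9%) and 43.8% on 3R (42.02 to 45.6%), with those arms taken whole. These are 4 arms of 1 genome measured in the same libraries, so the differences were not tested.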

How the data were processed

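Per the file headers, the 3 deposited lists hold regions of significant enrichment with coordinates of FlyBase release 5, counted from 1. The score of each region was deposited by the authors in column 6. Not given in the sources used here are the aligner, the caller, its threshold and how the replicates were combined. Samples were grouped by their titles. Starts and ends were used as deposited. Overlap meant 1 bp or more, coverage counted merged clusters, and gaps were the bases between neighbours. Windows began at base 1, and clusters were counted in the window of their middle. Intervals are 95% Wilson intervals and cover counting error alone. With 2 replicates and lists made from the same libraries, no test was made. Members and rules for named regions (the highest-scoring, the widest, the densest and empty windows, the longest gaps and runs) were chosen with earlier results of these data known. Interval code was tested on simulated data. Values were computed with pandas 2.3.3 and numpy 2.4.6 under Python 3.11.15, intervals with scipy 1.17.1 and figures with matplotlib 3.10.9. No genome sequence of release 5 was used here.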

Additional observations from a re-analysis of the deposited data

How the results depend on the processing

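Of 21 alternatives, 4 left out a replicate. Of the other 17, 9 left the value within its interval, its spread or 1.5 times the main value, and 8 moved it. The share of members in both replicates, 40.5%, became 34.5% where each replicate had to cover 50% of the member, 19.0% with the replicate lists reduced to scores not below their median, which leaves fewer clusters to overlap, and 78.6% for members that score no lower than the series-wide median. For members of at least 1301 bp, an alternative added after the data had been seen, it was 50.9%. The share overlapped by the one remaining replicate was 45.1% to 63.0%. Replicate coverage, 17.3%, was 10.4% with the lists reduced in the same way, so with fewer clusters. Among members so reduced, the median width was 3083 bp in place of 2001 bp and the median gap 7281 bp in place of 2677 bp. Windows shifted by 50 kb gave 4 empty ones in place of 2, so the number of empty windows depends on where they begin, while the 7 gaps over 100 kb do not. The same shift put the densest window at 11350001 to 11450000, with 78.4%, in place of 1400001 to 1500000. Ranking by the mean of the replicates put it at 600001 to 700000. Both alternatives count as leaving the value, since coverage and not position was compared, so the place of the densest window depends on these choices. Coverage without either replicate, 13.8% and 20.7%, cannot leave the SD with n = 2. Other causes were not tested. The limits that read depth sets could not be measured, as no depth is known.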

Other observations

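The lowest score of the members, 0.0854, was that of chr2L:9995410-9997060, a cluster singled out after its value had been seen. It lay 185 bp behind chr2L:9984044-9995224, an 11181 bp cluster with a score of 1.13. In replicate 1 a single cluster at 9984018 to 9997062, with a score of 1.25, took in both. In replicate 2 the cluster at 9984244 to 9995047, with 0.970, ended before the low-scoring one began. The place is thus 1 domain in replicate 1, and a domain with a separate weak flank in the series-wide list.

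Among members in a single replicate, likewise picked after their values were seen, chr2L:7154574-7158424 had a replicate 1 cluster over 88.6% of its 3851 bp, with a score of 0.844 and no replicate 2 cluster. The member chr2L:1161564-1162822 had a replicate 2 cluster over 95.9% of its 1259 bp, with a score of 1.02 and no replicate 1 cluster.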
